A study of Mus musculus with 6 samples.

Results

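Small extracellular vesicles (sEVs) released by cultured mouse islets carried 6 listed miRNAs from inside the Hox gene clusters, and the abundant members among them, miR-10a-5p and miR-10b-5p, were lower in every library from high-fat-diet donors than in any library from normal-chow donors. The members were the entries named miR-10a, miR-10b, miR-196a, miR-196b or miR-615 with any arm, which gave 6 of the 718 entries of the small RNA table: miR-10a-5p, miR-10a-3p, miR-10b-5p, miR-10b-3p, miR-196a-5p and miR-615-3p. They were chosen by name among entries that the table lists, and each listed entry was detected in at least 2 libraries, so measured reads decided which arms are present. The family was picked with results of this diet contrast known. The levels below are therefore a description of these libraries, and no p-value is given for a member. The rule found no row for miR-196b, for miR-196a-3p or for miR-615-5p, which were not analysed here.

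The libraries came from islets of wild-type C57/B6J mice fed a normal chow diet (NCD, nid-sEVs, n = 3) or a high-fat diet (HFD, aid-sEVs, n = 3), with diet the only labelled difference. The islets were kept in serum-free culture and the vesicles were pelleted by ultracentrifugation, so vesicles of every cell type in the isolate were sampled together. Donor ages are not given in the labels. No label says that the libraries came from separate animals or cultures, so the spread within a group may be technical, and every p-value below measures the spread between these samples alone. The deposited level is RPM, the reads of an entry scaled to a fixed total in each library, and whole reads could be recovered from it. The total of a library slightly exceeds the reads of its listed entries. The HFD libraries held 122266 to 519315 reads and 559 to 629 detected entries, and the NCD libraries held 50534 to 129152 reads and 301 to 489. A level of 3 reads, taken as the smallest that the depth can show, was 5.78 to 24.5 RPM in HFD libraries and 23.2 to 59.4 RPM in NCD libraries. In NCD replicate 1, 33.4% of reads fell on entries without a miRBase name, against 6.61% to 9.45% in the other 5 libraries. Islet origin was visible in miR-375-3p, the miRNA most associated with endocrine islet cells, which was at 56584 RPM or higher in all 6 libraries.

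Hox genes encode transcription factors that set positional identity along the body axis, and the miRNA genes between them are transcribed with their neighbours. The miR-10 genes lie beside Hox4 paralogues and the miR-196 genes near Hox9 and Hox10 paralogues, and miR-196 is a textbook repressor of Hoxb8. A miRNA finds its targets mainly through its seed, bases 2 to 8 from the 5′ end, so miRNAs with the same seed share many predicted targets. Adult tissues keep part of the positional pattern, and miR-10 is known for high levels in mesenchymal and endothelial cells.

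The mature sequences are shown because the read of miR-10a-5p differs from that of miR-10b-5p by a single base, which bears on how the reads were divided between them. Sequences are from RefSeq (GRCm38.p6), 5′ to 3′, with the seed in capitals.
mmu-miR-10a-5p: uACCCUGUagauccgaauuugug
mmu-miR-10b-5p: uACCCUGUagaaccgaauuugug
mmu-miR-10a-3p: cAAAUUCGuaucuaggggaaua
mmu-miR-10b-3p: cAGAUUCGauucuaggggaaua
mmu-miR-196a-5p: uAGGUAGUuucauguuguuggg
mmu-miR-615-3p: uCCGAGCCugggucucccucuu

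Both miR-10 5p arms have 23 bases and the same seed, and the difference, U12A when counted from the 5′ end of miR-10a-5p, lies outside it. The 3p arms differ at 3 of 22 bases (A3G, U9A and A10U), and A3G is inside the seed, so the 3p arms do not share one. The unlisted miR-196b-5p differs from miR-196a-5p by A12C alone, also outside the seed. How the counting treated reads that match both of such a pair is not given in the sources used here, so the division between miR-10a-5p and miR-10b-5p, and the assignment of reads to miR-196a-5p rather than miR-196b-5p, are uncertain to that extent.

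The hairpins occupy 3 of the 4 Hox clusters (GRCm38 coordinates, GENCODE M21 annotation). Mir10a (chr11:96317165-96317274, + strand) lies between Hoxb5 and Hoxb4, 992 bases before the start of Hoxb4 and outside any coding transcript of its strand. Mir10b (chr2:74726070-74726137, + strand) is intronic in 3 transcripts of Hoxd3 and Hoxd4. miR-196a-5p has 2 source hairpins with the same mature product, which the reads cannot tell apart. Mir196a-1 (chr11:96265164-96265265, + strand) lies 6191 bases before Hoxb9, and Mir196a-2 (chr15:102973350-102973434, + strand) lies 1456 bases after Hoxc10 and 3004 bases before Hoxc9, inside an intron of a long Hoxc5 transcript. Mir615 (chr15:103014910-103015001, + strand) is intronic in 2 Hoxc5 transcripts. Mir10a and Mir196a-1 therefore share the Hoxb cluster, and Mir196a-2 and Mir615 the Hoxc cluster.

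**Figure D1:**
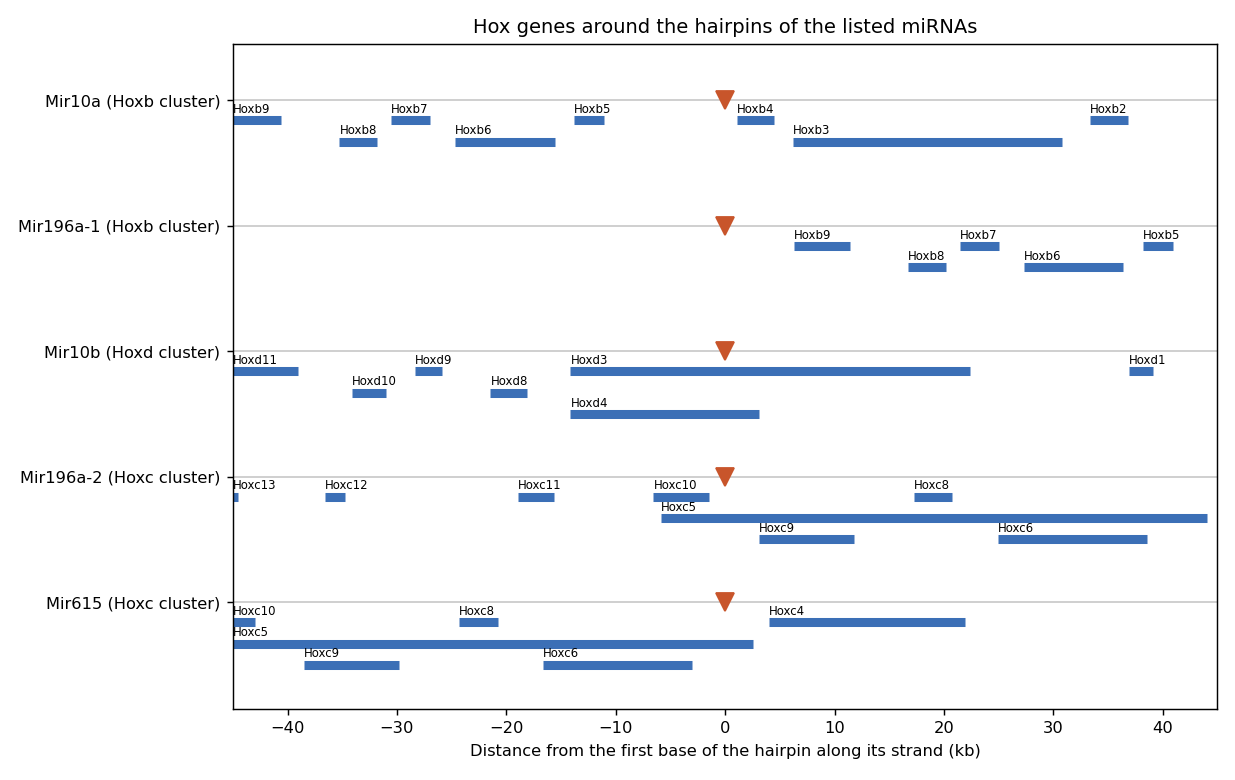
Position of each hairpin (orange triangle, at 0) among the Hox genes of its cluster (blue bars), drawn to scale with distance along the hairpin's strand in kb on the x axis and 1 hairpin per row. Mir10a sits directly before Hoxb4, Mir10b sits within Hoxd3 and Hoxd4, and Mir196a-2 and Mir615 both sit within the span of Hoxc5.

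miR-10a-5p was the most abundant member. Its level was 15098, 17085 and 7599 RPM in NCD replicates 1 to 3, and 6940, 3571 and 5782 RPM in HFD replicates 1 to 3. All HFD libraries were below all NCD libraries, with NCD replicate 3 close to the highest HFD library. The means were 13261 ± 5003 RPM in NCD and 5431 ± 1712 RPM in HFD (SD, n = 3 each), a 2.44-fold higher NCD mean, from 3456 and 5569 reads. By its mean, miR-10a-5p ranked 15th of all entries in NCD and 33rd in HFD.

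miR-10b-5p followed the same order of libraries in NCD at a lower level. It was at 12737, 14299 and 4334 RPM in NCD and at 4142, 2444 and 3991 RPM in HFD. The groups again did not overlap, but only narrowly: the 95% Wilson interval of NCD replicate 3 (3797 to 4945 RPM, 219 reads) contained the values of HFD replicates 1 and 3. The means were 10456 ± 5360 RPM in NCD and 3526 ± 940 RPM in HFD (SD, n = 3 each), a 2.97-fold higher NCD mean. These intervals cover counting error only.

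**Figure D2:**
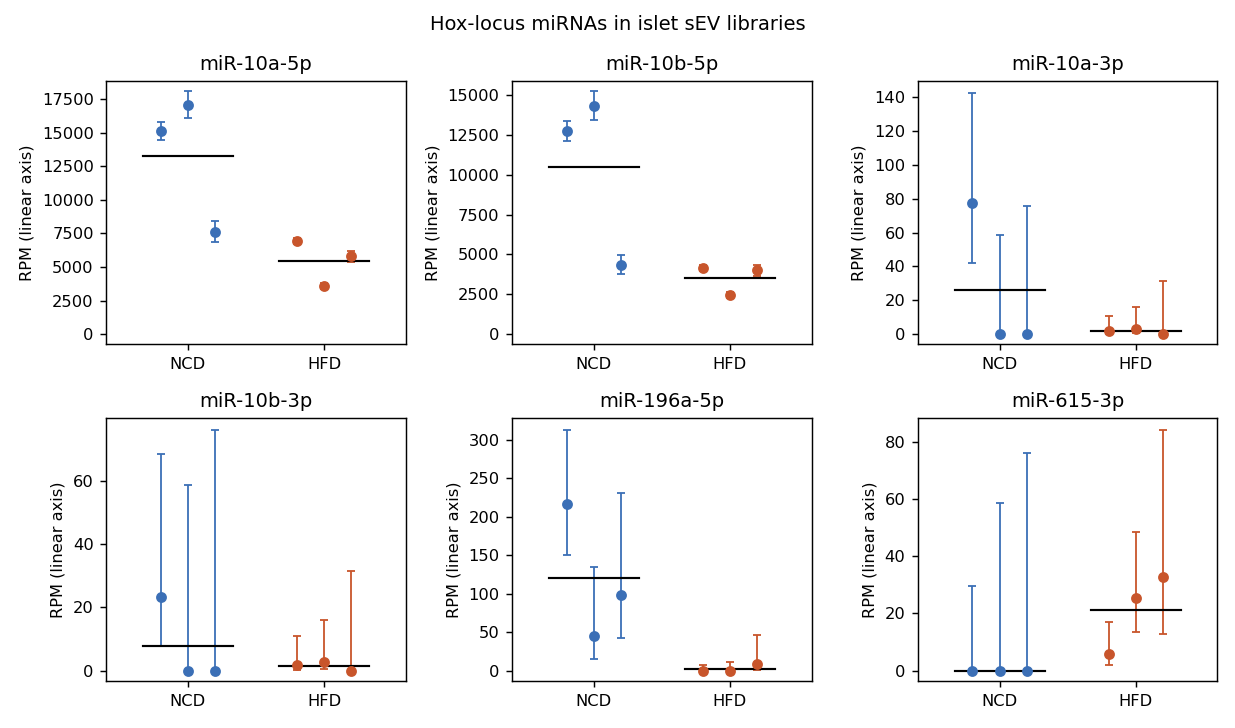
RPM on a linear axis of each member in each library, grouped by diet, with points for libraries in replicate order, 95% Wilson intervals of the read count as bars and the group mean as a black line. The 5p arms of miR-10a and miR-10b and miR-196a-5p are lower in all HFD libraries, the 3p arms rest on NCD replicate 1, and miR-615-3p has no read in NCD.

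On the log2(RPM + 1) scale the fitted change from NCD to HFD was -1.26 (SE 0.44) for miR-10a-5p and -1.43 (SE 0.55) for miR-10b-5p. A call needed an adjusted p under 0.05 by limma over all 718 entries and a change over 1 in size, and neither 5p arm met it. Both changes stayed negative under 17 alternative settings, from -1.62 to -0.76 for miR-10a-5p and from -1.98 to -0.93 for miR-10b-5p. As their groups did not overlap, leaving out a library or changing the amount added to RPM could not turn the sign. The smallest sizes came from scaling with TMM factors, under which the median change of the 219 entries detected in every library went from -0.21 to 0.29. Relative to that median, miR-10a-5p was lower by 1.05 and miR-10b-5p by 1.22 on the log2 scale, and 29.7% and 24.7% of the 219 entries had still lower values. The median over all 718 entries was 1.11. DESeq2 on the recovered reads called both 5p arms lower, and edgeR's quasi-likelihood test called miR-10b-5p alone. Over all entries, DESeq2 called 50 of 718 lower, and the quasi-likelihood test 21 of the 245 that it tested.

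Of the 6 members, 3 were lower in all HFD libraries than in any NCD library (miR-10a-5p, miR-10b-5p and miR-196a-5p), a pattern that 7.52% of all entries had. Among the 219 entries detected in all libraries, which include miR-10a-5p and miR-10b-5p, 44 had it. A single member, miR-615-3p, was higher in all HFD libraries, which held for 24.2% of all entries. By the limma call, miR-196a-5p was lower and miR-615-3p higher, against 1.81% of entries called lower and 15.6% called higher. As the members were picked with this contrast known, nothing is read from these counts.

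The 5p arms of miR-10a and miR-10b kept a similar balance. miR-10b-5p made up 45.8%, 45.6% and 36.3% of their summed reads in NCD and 37.4%, 40.6% and 40.8% in HFD. NCD replicate 3 held the lowest share of all 6 libraries, with a Wilson interval of 32.6% to 40.2%, and the HFD shares lay between it and the other NCD libraries. The ratio of miR-10b-5p to miR-10a-5p was 0.750 ± 0.156 in NCD and 0.657 ± 0.0523 in HFD (SD, n = 3 each), so the groups overlapped and the mean difference was smaller than the spread in NCD. Summed over both, miR-10 5p arms ranged from 11933 to 31384 RPM in NCD and from 6016 to 11082 RPM in HFD.

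**Figure D3:**
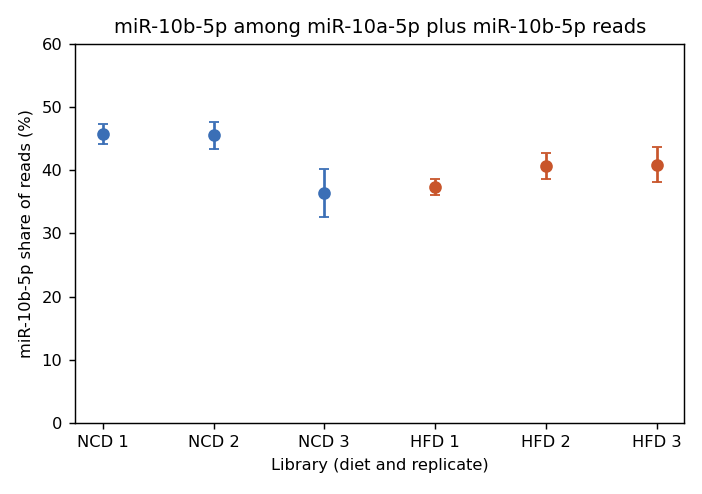
Share of miR-10b-5p among the reads of miR-10a-5p and miR-10b-5p (percent, y axis from 0) in each library (x axis), with 95% Wilson intervals as bars, NCD in blue and HFD in orange. NCD replicate 3 has the lowest share, 36.3%, and the HFD libraries lie between 37.4% and 40.8%.

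The 3p arms were near the limit of detection. miR-10a-3p had 10 reads in NCD replicate 1 (77.4 RPM), none in NCD replicates 2 and 3, 1 read each in HFD replicates 1 and 2 (1.93 and 2.84 RPM) and none in HFD replicate 3. miR-10b-3p had 3 reads in NCD replicate 1 (23.2 RPM), none in the other NCD libraries, and the same single reads as miR-10a-3p in HFD. Both groups overlapped for both arms. The fitted changes, -0.93 (SE 1.86) and -0.37 (SE 1.45), each turned to 1.16 without NCD replicate 1, so neither arm has a direction in these data.

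Among reads of the hairpin, the 5p arm was almost all of what the vesicles carried. Pooled over libraries, miR-10a-3p made up 0.289% of reads from both miR-10a arms in NCD (10 of 3466) and 0.0359% in HFD (2 of 5571). For miR-10b-3p the shares were 0.107% (3 of 2806) and 0.0571% (2 of 3502). All NCD reads of both 3p arms came from replicate 1.

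miR-196a-5p was scarce, and nearly all of its reads came from NCD libraries. It had 28, 3 and 5 reads in NCD replicates 1 to 3 (216.8, 45.7 and 98.9 RPM), none in HFD replicates 1 and 2, and 1 read in HFD replicate 3 (8.18 RPM). Every NCD library was above every HFD library, although the HFD libraries were deeper in total. The means were 120 ± 87.6 RPM in NCD and 2.73 ± 4.72 RPM in HFD (SD, n = 3 each). The absence in HFD replicates 1 and 2 allows a level of up to 5.78 and 8.52 RPM, below all 3 NCD values.

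The ratio of the group means, the measure given for the miR-10 5p arms, was 44.2 for miR-196a-5p. Pooled by group, it had 36 of 245357 reads in NCD and 1 of 993825 in HFD. The pooled ratio was 146, with an exact interval for counting error of 24.6 to 5918. Without NCD replicate 1 the pooled ratio was 68.4 (9.17 to 3036), from 8 NCD reads. Pooling weights libraries by their depth, and its interval leaves out the spread between libraries. The fitted change was -5.59 (SE 1.25) on the log2(RPM + 1) scale, the 4th lowest of the 718 entries, and its size depends on the added 1 because 2 libraries held no read. It passed the limma call with all libraries and lost it when NCD replicate 2 (-6.14), NCD replicate 3 (-5.59), HFD replicate 1 (-5.05) or HFD replicate 2 (-5.05) was left out.

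miR-615-3p went the other way, at a mean level below the 3-read floor of each NCD library. It had 3, 9 and 4 reads in HFD replicates 1 to 3 (5.78, 25.6 and 32.7 RPM; mean 21.3 ± 14.0, SD, n = 3) and none in NCD. The NCD floors were 23.2, 45.7 and 59.4 RPM, and the HFD mean was below all 3 of them. At the pooled HFD level of 16.1 RPM, the NCD libraries would be expected to hold 2.08, 1.06 and 0.814 reads. Each expectation is below 3 reads, so the absence of reads in any single NCD library does not show a lower level. A difference between the groups rests on few reads, and no fold is given. The fit on log2(RPM + 1) called it (4.19, SE 0.92). It was also called on a single random thinning of reads to the smallest library (4.38), where 1 read was 19.8 RPM. The thinned call thus rests on very few HFD reads and does not show a lower level in NCD. The call on the full reads was lost without NCD replicate 2 (4.19), NCD replicate 3 (4.19) or HFD replicate 2 (3.92).

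The members therefore spanned a wide range of levels. In NCD the order by mean was miR-10a-5p, miR-10b-5p, miR-196a-5p, miR-10a-3p, miR-10b-3p and miR-615-3p, and in HFD miR-615-3p stood above miR-196a-5p. miR-10a-5p exceeded miR-10b-5p within each of the 6 libraries, but the group means of this neighbouring pair differed by less than the SD in NCD and by more than it in HFD. The 3p arms did not differ from each other beyond their spread in either group.

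Across the 6 libraries, the entry whose log2(RPM + 1) was most like that of miR-10a-5p was miR-10b-5p (Pearson r = 0.984), out of 192 other named miRNAs with a mean of at least 100 RPM. The next were miR-146a-5p, a miRNA known for its part in NF-kB feedback (r = 0.965), and miR-540-5p (r = 0.946). For miR-10b-5p the list was miR-10a-5p, miR-146a-5p (r = 0.964) and miR-100-5p (r = 0.923). miR-146a-5p was at 2981, 5604 and 1563 RPM in NCD and at 1159, 642 and 1390 RPM in HFD.

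The closest entries to miR-196a-5p were miR-5126 (r = 0.923), miR-200b-3p (r = 0.914) and miR-200c-3p (r = 0.904), the last pair being epithelial miRNAs. Those closest to miR-615-3p were miR-700-3p (r = 0.972), miR-7b-5p (r = 0.971) and miR-362-5p (r = 0.960), all higher in HFD. For both 3p arms they were let-7j, miR-16-5p and miR-148b-3p, each highest in NCD replicate 1. These correlations describe 6 points that share their diet groups and their library depth. miR-196a-5p correlated with miR-10a-5p at r = 0.755 and with miR-10b-5p at r = 0.730.

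Outside the Hox clusters, the miR-99/100 family is the nearest kin of miR-10 by sequence. The family is shown for its long shared run with miR-10, which starts at base 7 of miR-10 and at base 6 of miR-99/100. The seeds begin alike but are not the same.
mmu-miR-100-5p: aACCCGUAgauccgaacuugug
mmu-miR-99a-5p: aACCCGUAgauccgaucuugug
mmu-miR-99b-5p: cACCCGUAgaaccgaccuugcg

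Bases 7 to 17 of miR-10a-5p equal bases 6 to 16 of miR-100-5p, a run of 11, and miR-10b-5p shares a run of 10 with miR-99b-5p. None of the 3 passed the limma call in either direction, and their median change was -0.42 against -0.21 for entries detected in all libraries. miR-100-5p was at 10685, 5710 and 3681 RPM in NCD and at 2453, 1445 and 2495 RPM in HFD, without overlap (-1.56, SE 0.50, limma adjusted p = 0.090). miR-99a-5p, at -0.42 (SE 0.65, limma adjusted p = 0.716), and miR-99b-5p, at -0.13 (SE 0.34, limma adjusted p = 0.829), overlapped between groups.

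miR-196a-5p carries in its seed a run that the let-7 family, known for differentiation and glucose metabolism, carries a base further along: bases 2 to 8 of miR-196a-5p equal bases 3 to 9 of let-7. Of 8 let-7 5p arms, 4 were called higher in HFD and 0 lower, with a median change of 1.32. Over all 718 entries, 15.6% were called higher and 1.81% lower, and this list was chosen with earlier results known. let-7c-5p, with the largest change among them, rose from 10972, 28216 and 21985 RPM in NCD to 98730, 127150 and 86753 RPM in HFD (2.44, SE 0.40, limma adjusted p = 0.016). let-7a-5p (1.22), let-7g-5p (0.93), let-7e-5p (-0.31) and let-7i-5p (-0.03) did not pass. The summed let-7 level was 82345 to 87684 RPM in NCD and 208897 to 289615 RPM in HFD, so it took up a larger part of each HFD library.

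**Figure D4:**
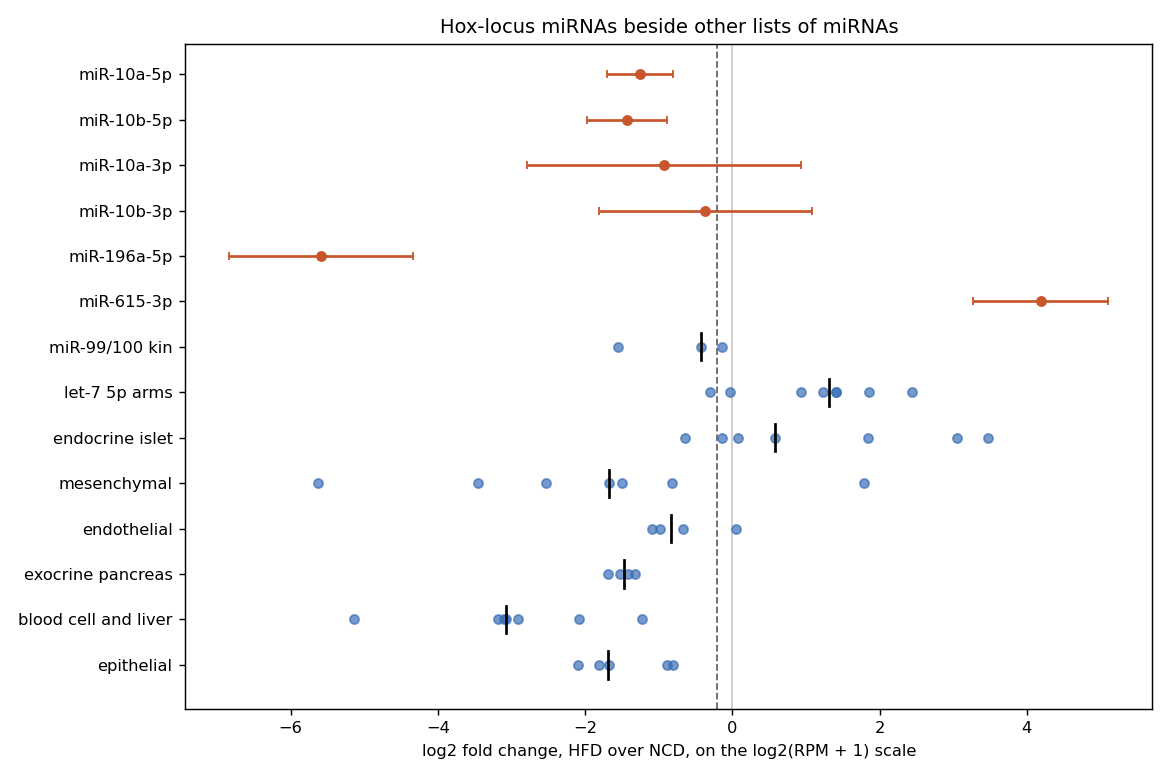
Fitted log2 change from NCD to HFD on the log2(RPM + 1) scale (x axis) of each member (orange, with standard error) and of the miRNAs of each comparison list (blue points, black line at the list's median). The dashed line marks the median of entries detected in all libraries, -0.21, and the grey line 0: miR-10a-5p and miR-10b-5p lie left of both, as do most exocrine, blood cell and liver, epithelial and mesenchymal miRNAs.

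Markers of other cells that an islet culture can hold are given beside the miR-10 level. These lists were chosen with earlier results of these data known, so their calls are a description. Over all 718 entries, 1.81% were called lower and 15.6% higher. Of 7 mesenchymal miRNAs, where miR-143-3p and miR-199a-5p are the most abundant, 0 were called in either direction, and 6 had negative changes (median -1.67). Their summed level was 26310, 18136 and 5838 RPM in NCD and 11771, 4531 and 6764 RPM in HFD. NCD replicate 3 was low in this sum as it was in miR-10a-5p and miR-10b-5p, but the groups of the sum overlapped. That was not particular to the mesenchymal list. NCD replicate 3 was also the lowest NCD library in the endothelial, exocrine pancreas, blood cell and liver, and epithelial sums. In the endocrine islet sum it was the highest (367080 RPM). Of 4 endothelial miRNAs 0 were called (median -0.83), with summed levels of 1009 to 4104 RPM in NCD and 704 to 1375 RPM in HFD.

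The sums of exocrine pancreas miRNAs did not overlap between the diets. Their summed level was 95678 to 151102 RPM in NCD and 21584 to 59199 RPM in HFD, with 1 of 4 called lower, miR-148a-3p (-1.69, SE 0.41, limma adjusted p = 0.037), and a median of -1.47. Of 7 blood cell and liver miRNAs 3 were called lower, among them miR-486a-5p (-3.07, SE 0.63, limma adjusted p = 0.025), with sums of 5086 to 14564 RPM in NCD and 769 to 1606 RPM in HFD. Of 5 epithelial miRNAs 2 were called lower, miR-200b-3p (-1.68, limma adjusted p = 0.046) and miR-200c-3p (-1.81, limma adjusted p = 0.030), with sums of 5679 to 10233 RPM in NCD and 1962 to 4171 RPM in HFD.

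Of 7 endocrine islet miRNAs, 3 were called higher in HFD and 0 lower (median 0.58), and their sums, 80742 to 367080 RPM in NCD and 223210 to 241094 RPM in HFD, overlapped. All miRNAs of these 6 marker lists were listed in the table, and at most 2 of a list had no read in a given library. The part of other cell types in the levels of the Hox-locus miRNAs was not tested. In vesicle RNA, fewer vesicles of a cell type and less of a miRNA per vesicle cannot be told apart.

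Matches to the members' 5 distinct seeds were counted in Hox messages. The reverse complement of each seed was searched on the transcript strand in the first 500 bases of the 3′ UTR, 1 transcript per gene, in all genes with a UTR of that length. The miR-196 match ACTACCT, which overlaps the let-7 match because of the shared run, was in 8 of 34 Hox windows (23.5%) and in 283 of 14290 windows of all genes (1.98%). In the Hoxb and Hoxc clusters, which hold the Mir196a hairpins, these were Hoxb6, Hoxb7 and Hoxc8. The miR-10 match ACAGGGT was in 1 Hox window (2.94%, Hoxa3) against 4.79% of all, and the miR-615-3p match GGCTCGG in 0 against 1.01%. The miR-10a-3p match CGAATTT and the miR-10b-3p match CGAATCT were each in 0 Hox windows, against 0.511% and 0.469% of all. A match describes the letters only, and no Hox message was measured here.

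Sites are shown for the fullest pairing of miR-196a-5p and for the fullest pairing with an intact seed match of miR-196a-5p and miR-10a-5p among the 39 Hox 3′ UTRs scanned at full length, with the bases opposite the seed in capitals, written 5′ to 3′ on the gene's strand.
Hoxb8 site for miR-196a-5p: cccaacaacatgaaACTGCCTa
Hoxa7 site for miR-196a-5p: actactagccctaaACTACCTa
Hoxd1 site for miR-10a-5p: tagcggaacaaatccACAGGGTa

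The Hoxb8 site (chr11:96284888-96284909, + strand) pairs with all 22 bases of miR-196a-5p, 21 by Watson-Crick pairs and 1 by a G:U pair. The G:U pair falls opposite the seed, so the site is not among the windows counted above. It lies in the same cluster as Mir196a-1. The Hoxa7 site (chr6:52215210-52215231, - strand) has a full seed match and 14 Watson-Crick pairs, and the Hoxd1 site (chr2:74764930-74764952, + strand) has 13 with miR-10a-5p and 12 with miR-10b-5p.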

How the data were processed

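Small RNA was sequenced from sEVs of cultured islets by a company. The submitters' processing notes list fastp 0.23.0, HISAT2 2.2.1 and GRCm38, with no role; the quantifier, miRNA annotation and filter are not given in the sources used here. The authors deposited a single table with RPM per library, relative to the library's total, and columns of their own comparison (fold change, mean abundance, p-value, FDR and level), which were not used. Division by the smallest value gave whole reads for 100% of values (tolerance 0.01).

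Groups came from the labels. The test was limma 3.58.1 in R 4.3.3 (lmFit, eBayes with trend) on log2(RPM + 1), diet as the only term, Benjamini-Hochberg over 718 entries. The added 1 can shrink changes of low entries. An entry without reads in the shallower NCD libraries can instead get a large positive change, as miR-615-3p did (4.19). edgeR 4.0.16 and DESeq2 1.42.0 were run on recovered reads as alternatives. Intervals are 95% Wilson, or exact conditional for a ratio. Members and lists were chosen with earlier results of these data known. Named were all members, the fixed kin and marker lists, the 3 most correlated entries per member with a mean of at least 100 RPM, and neighbouring Hox genes.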

Additional observations from a re-analysis of the deposited data

How the results depend on the processing

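Signs were kept by miR-10a-5p and miR-10b-5p under 17 alternatives each, by miR-196a-5p under 15 and by miR-615-3p under 15. Their groups did not overlap, so a left-out library, another amount added to RPM or a replicate block could not turn a sign. miR-10a-5p was called by DESeq2 alone (-1.19), and miR-10b-5p by edgeR's quasi-likelihood test (-1.62), by DESeq2 (-1.45) and without NCD replicate 3, within a range of -1.98 to -1.11 when 1 library was left out. miR-196a-5p lost its call with 0.1 added to RPM (-7.83) and ranged from -6.65 to -5.03 with 1 library left out. It could not be fitted among entries detected in all libraries or those passing the edgeR filter. miR-615-3p lost its call with 10 added (1.53), by DESeq2 (3.18), with the replicate block, and without NCD replicate 2, NCD replicate 3 or HFD replicate 2. The change of miR-10b-3p turned to 0.45 with 0.1 added and ranged from -1.14 to 1.16 with 1 library left out, and that of miR-10a-3p ranged from -1.98 to 1.16. No label says that same-numbered libraries are paired, and they did not deviate together (r = -0.053, 0.058 and -0.051). These correlations run over all entries, many of them with few reads, so they cannot exclude pairing. With a replicate block, miR-196a-5p stayed at -5.59 without a call, and limma called 0 entries lower and 0 higher, against 187 entries past the fold at an unadjusted p under 0.05.

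Entries called lower, 13 in all, numbered 8 with 0.1 added, 3 with TMM factors, 5 on thinned reads, 21 by the quasi-likelihood test, 50 by DESeq2 and 1 to 26 with 1 library left out, fewest without NCD replicate 2 and most without NCD replicate 1. Entries called higher, 112 in all, numbered 62 with 10 added, 69 at a mean of at least 10 RPM, 23 among entries detected in all libraries, 65 on thinned reads, 48 by the quasi-likelihood test, 65 by DESeq2 and 33 to 150 with 1 library left out. The causes were not tested. Centring on entries detected in all libraries was chosen after seeing the data. Depth limits what can be said of the 3p arms and miR-615-3p.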
